A study of Mus musculus with 16 samples.

Results

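Among 7 mice carrying a huntingtin-fragment transgene, the gastrocnemius muscle of 4 had much more Cdkn1a transcript than that of the other 3, and the expression profiles of these sets of arrays are described here. The arrays were selected on measured values, and an array was placed in the high-Cdkn1a set when its brightest Cdkn1a probe, of 3 on the array, exceeded 12 log2 units in the authors' deposited log2 values. The array just inside the limit read 12.67 and the one just outside read 11.22, while the 9 wild-type arrays of the series ran from 8.72 to 10.87. Because the arrays were sorted by an expression value, differences between the high and low sets are given as descriptions with no test, and Cdkn1a is not counted among the results.

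All 16 mice of the series were of strain B6C3F1/J, and 1 array was hybridised per animal. Transgenic mice (Tg/+) carried N17182Q, which encodes the start of the huntingtin protein with a lengthened run of glutamines and is driven by a prion protein promoter. That promoter is best known for its activity in the nervous system and is not restricted to muscle. The treatment was 4b, which inhibits histone deacetylases, or its vehicle, in groups of 4 wild-type vehicle, 5 wild-type 4b, 4 transgenic vehicle and 3 transgenic 4b animals. The high set held all 3 transgenic mice given 4b and 1 transgenic mouse given vehicle, and the low set held the other 3 transgenic vehicle mice, so Cdkn1a level and 4b treatment cannot be told apart except through that 1 vehicle animal. The sources used here give no dose, duration, age, sex, or body or muscle weight. No measure of muscle wasting therefore stands behind the split, which is named by its rule.

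Cdkn1a encodes p21, an inhibitor of cyclin-dependent kinases that is induced by p53, by growth arrest and in skeletal muscle by denervation, disuse and catabolic hormones. Wasting muscle breaks down its proteins chiefly through the ubiquitin-proteasome system and autophagy. FoxO transcription factors switch on the muscle ubiquitin ligases Fbxo32 (atrogin-1) and Trim63 (MuRF1), and glucocorticoids and inflammatory cytokines such as interleukin-6 act on the same genes.

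The 4 high arrays did not form a uniform set. On the leading principal component of all 16 arrays, which held 36.6% of the variance, the transgenic vehicle animal of the high set lay at 53.7, the first and second 4b animals at 56.6 and 55.6, and the third 4b animal at 29.8. The low arrays lay at 2.21, 18.96 and -1.35, and the wild-type arrays between -33.2 and -11.97. Every high array was thus farther from wild type than every low array on this axis, but the profile of the third 4b animal correlated best with that of a low array, transgenic vehicle animal 3 (r = 0.984 across genes, which are not independent replicates). Judged by Y-linked transcripts, 2 of 4 high and 2 of 3 low animals were male. The share of detected probes was 44.1% to 46.9% on the high and 46.0% to 50.3% on the low arrays. All 8 skeletal muscle markers were detected on every array, with summed intensities of 185000 to 199000 on high, 193000 to 211000 on low and 192000 to 217000 on wild-type arrays.

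**Figure D1:**
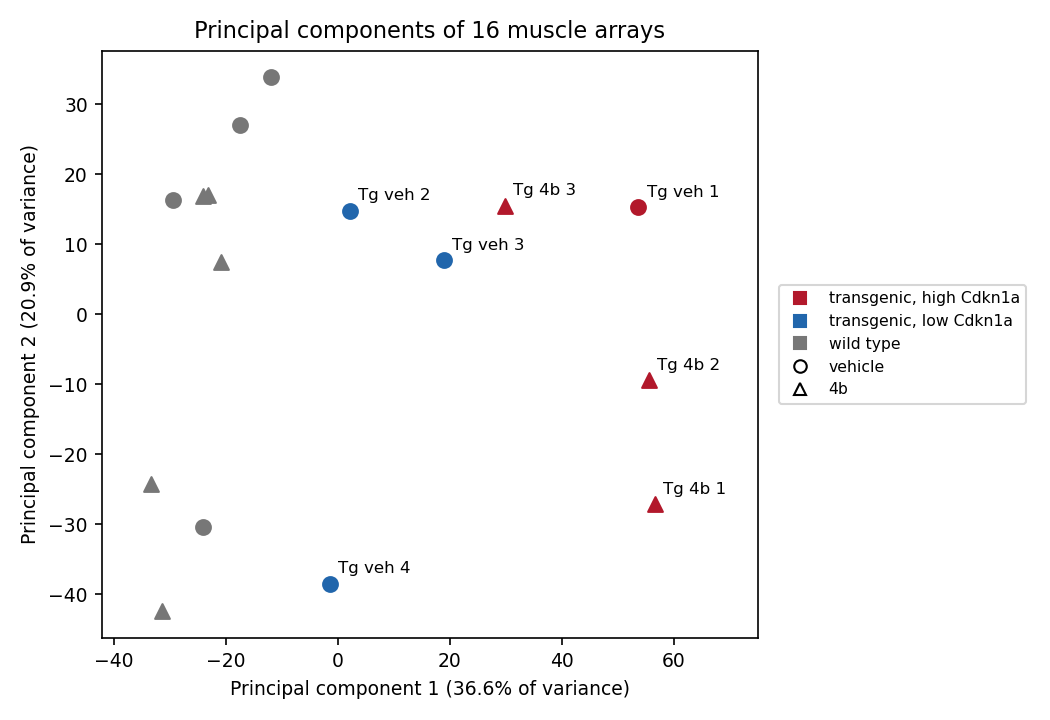
Scores of the 16 arrays on the first and second principal components (arbitrary units, with the percent of variance on each axis). Each point is 1 animal; red is high-Cdkn1a transgenic, blue low-Cdkn1a transgenic and grey wild type, with circles for vehicle and triangles for 4b. The high arrays reach from 29.8 to 56.6 on the first component and the low arrays from -1.35 to 18.96.

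A gene was called apart when every high array lay above, or below, every low array and the means differed over 2-fold. Of 10295 genes tested, 165 were apart and higher in the high set (1.6%) and 191 were apart and lower (1.86%). Without any requirement on size, 1058 genes (10.3%) were higher and 897 (8.71%) lower on every high array, and the median difference over all genes was -0.02 log2 units. Median scaling in place of quantile normalization gave 240 higher and 160 lower. The counts rose to 325 and 365 without the third transgenic 4b animal, and to 284 and 365 without transgenic vehicle animal 3. With the deposited log2 values, which carry no background correction, they were 81 and 84.

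For most of these genes the low mean lay between the wild-type and high means. The order of low and high was fixed by the selection, so only the place of wild type was free. No share of all genes stands beside these counts. Of the 165 higher genes, 137 had means in the order wild type, low, high, and in 131 every high array exceeded every wild-type array. The low arrays' mean lay inside the wild-type range for 109 of the 165 and above it for 56. Of the 191 lower genes, 141 had means in the opposite order. On all high arrays 127 lay below every wild-type array, while the low mean was inside the wild-type range for 132. The third 4b animal was the high array nearest to the low set for 120 of the higher and 127 of the lower genes.

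Values below are log2 levels after background correction and quantile normalization, and those of the high set are given in the order transgenic vehicle animal 1, then transgenic 4b animals 1, 2 and 3; those of the low set are transgenic vehicle animals 2, 3 and 4. In whole muscle, fewer cells of a type and less RNA per cell cannot be told apart.

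The genes of protein breakdown that stood apart were all higher in the high set, where 1.6% of all genes were apart and higher and 10.3% were higher on every high array. Of 16 tested ubiquitin ligases of muscle breakdown, 3 were apart and higher and 0 lower, with a list median of 0.19 against -0.02 for all genes. The list was mixed: 9 of the 16 lay above the median of all genes, and 5 were higher and 1 lower on every high array. Of 25 FoxO, autophagy and lysosome genes, 2 were apart and higher (median 0.12), and 3 were higher and 0 lower on every high array. Of 28 proteasome subunits, 1 was apart, although 12 were higher on every high array than on any low array and 0 lower, with a median of 0.30.

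Fbxo32, the ubiquitin ligase atrogin-1, read 13.23, 14.44, 13.84 and 13.06 on the high arrays against 10.54, 12.82 and 11.72 on the low arrays, with wild-type arrays from 11.12 to 13.39 (median 12.21). Its high mean was 3.86-fold above the low mean, yet 2 of the high values lay within the wild-type range, and the low arrays spread widely. Trim63, the ligase MuRF1 that marks myofibrillar proteins for breakdown, read 12.34, 13.28, 12.75 and 12.32 against 10.48, 11.73 and 11.06 (2.99-fold), above every wild-type array (10.35 to 12.10, median 10.97). Fbxo31, an F-box ubiquitin ligase subunit, read 11.39, 12.02, 11.84 and 10.91 against 9.77, 10.56 and 9.89 (2.76-fold).

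Foxo1, one of the FoxO factors that drive these ligases, read 10.40, 10.76, 10.21 and 10.45 on the high arrays and 8.65, 9.50 and 8.98 on the low arrays, with wild type from 7.82 to 8.76 (median 8.16). The high arrays were close to each other, 10.45 ± 0.23 (SD, n = 4) against 9.04 ± 0.43 (SD, n = 3), and exceeded all others by 2.66-fold in the mean over the low set. Gabarapl1, which builds the autophagosome membrane, was 2.40-fold higher, with 11.31, 12.66, 12.03 and 10.96 against 10.28, 10.59 and 10.57. Psma7, a subunit of the proteasome core, was 2.12-fold higher, with 13.51, 13.88, 13.82 and 12.67 against 12.23, 12.60 and 12.32. Both sat near the 2-fold limit: the log2 difference of Gabarapl1 was 0.83 in vehicle arrays only and that of Psma7 was as low as 0.95 when 4b animal 1 or 2 was left out.

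Promoters of the listed genes were read for the FoxO recognition motif GTAAACA on either strand, and those that hold it are shown because genes of the FoxO pathway stood apart. The windows of 300 bases span each gene's start in RefSeq (GRCm38.p6) and are written 5′ to 3′ on the gene's strand, with the motif in capitals; TGTTTAC is the same motif read on the other strand. Trim63 (chr4:134314870-134315169, plus strand) and Sesn1 (chr10:41810324-41810623, plus strand) were higher in the high set, and Col6a1 (chr10:76725995-76726294, minus strand) was lower.
Trim63: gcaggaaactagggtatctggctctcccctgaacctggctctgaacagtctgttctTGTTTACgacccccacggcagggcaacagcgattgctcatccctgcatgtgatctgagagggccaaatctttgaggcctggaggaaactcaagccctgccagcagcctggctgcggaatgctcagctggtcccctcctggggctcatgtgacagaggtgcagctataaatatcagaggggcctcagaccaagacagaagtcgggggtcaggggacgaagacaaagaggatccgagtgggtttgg
Sesn1: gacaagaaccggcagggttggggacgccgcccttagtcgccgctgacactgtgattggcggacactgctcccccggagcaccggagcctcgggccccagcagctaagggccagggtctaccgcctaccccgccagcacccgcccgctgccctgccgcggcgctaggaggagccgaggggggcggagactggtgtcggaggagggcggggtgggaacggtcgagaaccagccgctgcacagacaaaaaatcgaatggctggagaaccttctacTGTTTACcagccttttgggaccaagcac
Col6a1: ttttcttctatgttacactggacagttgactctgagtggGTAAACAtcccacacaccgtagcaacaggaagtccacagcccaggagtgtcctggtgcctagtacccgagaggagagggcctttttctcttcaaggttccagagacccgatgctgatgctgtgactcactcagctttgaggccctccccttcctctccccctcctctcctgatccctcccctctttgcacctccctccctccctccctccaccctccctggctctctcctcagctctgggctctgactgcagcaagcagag
The motif begins at position -194 in Trim63, -211 in Col6a1 and 22 bases after the start in Sesn1. It is present in 2 of the 29 named higher genes with a promoter in the table (6.9%), in 1 of 16 named lower genes (6.25%) and in 1199 of all 32851 promoters (3.65%). A named gene counted when any of its windows held the motif, whereas all promoters were counted window by window. The shares per gene and per promoter are therefore not directly comparable. A strict glucocorticoid receptor site, AGAACA and TGTTCT spaced by 3 bases, was in 0 of the named genes' windows and in 3 of all promoters (0.00913%). A string this rare cannot show whether looser receptor sites are present. The Trim63 window holds tgaacagtctgttct just before its FoxO motif, which differs from the strict string in its first base only. A match in such a window is a description of its letters.

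Genes that respond to glucocorticoid hormones lay mostly higher in the high set. Of 19 tested members, 4 were apart and higher and 0 lower, 8 were higher on every high array than on any low array, and 17 lay above the median of all genes. Over all genes, 1.6% were apart and higher and 10.3% were higher on every high array. The list median was 0.82 log2 units, and it ran from 0.58 to 0.87 over the alternatives. It was 0.76 between the 1 high and 3 low vehicle arrays.

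Ddit4, the stress-induced inhibitor of mTOR complex 1 also called REDD1, read 11.83, 12.30, 12.16 and 11.81 on the high arrays against 8.95, 11.29 and 9.21 on the low arrays. Wild-type arrays ran from 6.73 to 9.57 (median 7.59), so the high set exceeded all of them, and the 4.63-fold mean difference to the low set was narrowed by low array 3. Fkbp5, a co-chaperone of the glucocorticoid receptor and one of its standard targets, read 12.06, 11.54, 11.74 and 11.31 against 9.36, 10.79 and 9.68 (3.30-fold), with wild type from 6.84 to 9.64 (median 7.49).

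The metallothionein genes, which bind zinc and copper and are glucocorticoid-inducible, were higher as well. Mt1 read 14.99, 15.10, 15.27 and 14.65 against 13.36, 14.14 and 13.64 (2.45-fold), and Mt2 read 8.27, 8.70, 8.86 and 7.15 against 6.22, 6.80 and 5.58 (4.13-fold). Both were above every wild-type array, and without background correction the log2 difference of Mt2 was 1.22 against 2.05. Of other members, Angptl4, Arrdc2 and the clock gene Per1 differed by 1.53, 1.35 and 1.17 log2 units with overlapping sets, while the receptor gene Nr3c1 differed by 0.14 and Tsc22d3, a standard glucocorticoid target, by 0.07.

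**Figure D2:**
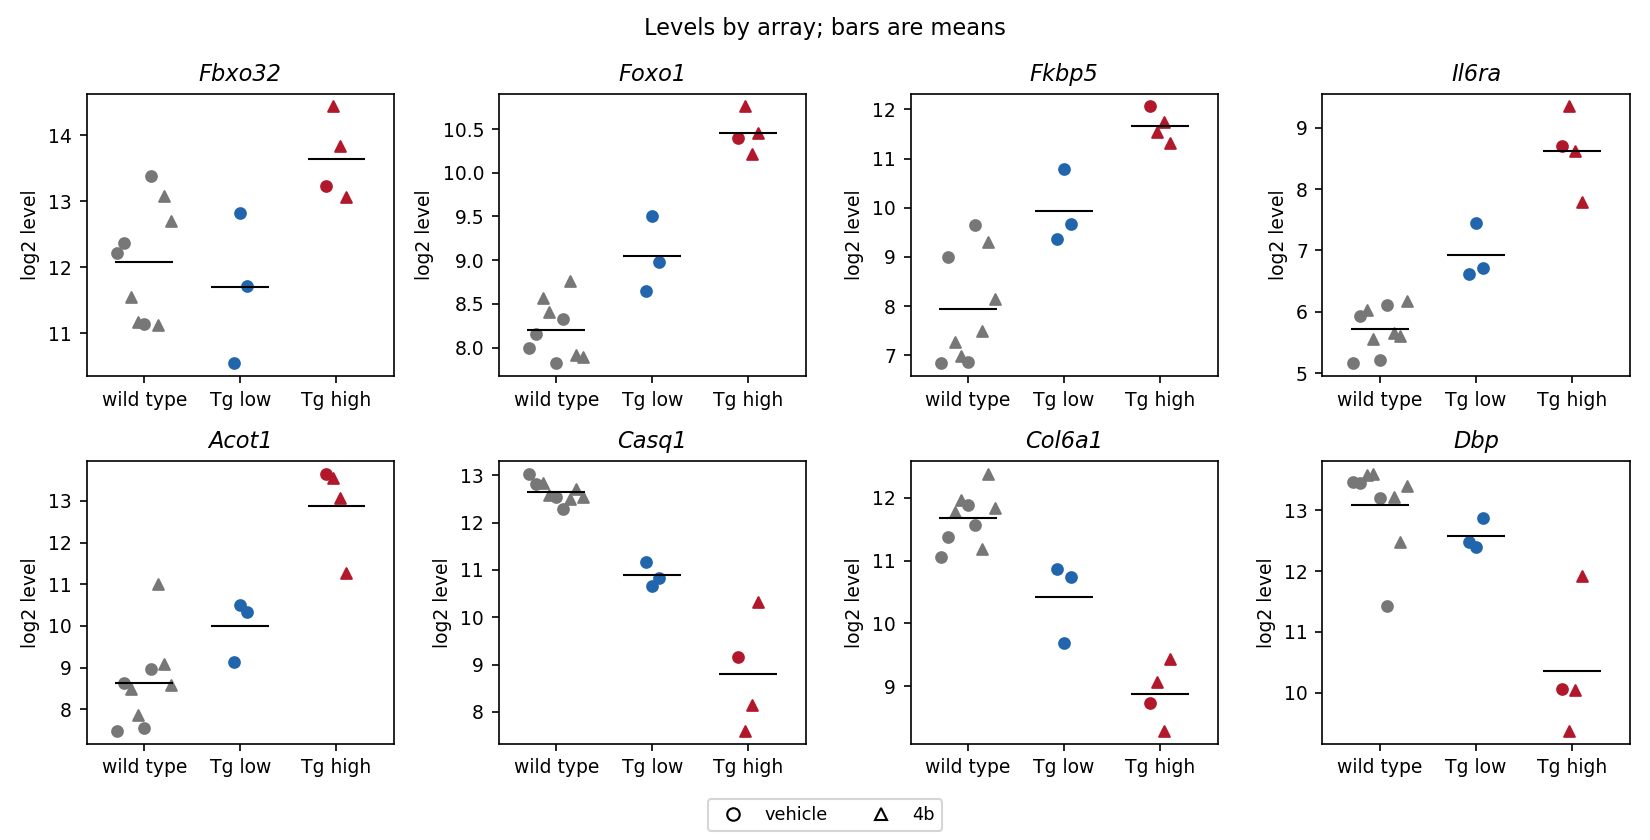
Log2 levels (vertical axis) of 8 genes on wild-type, low-Cdkn1a transgenic and high-Cdkn1a transgenic arrays (horizontal axis). Each point is 1 animal, circles are vehicle and triangles 4b, and bars are means. The high arrays of Foxo1 run from 10.21 to 10.76 above low arrays of 8.65 to 9.50, and those of Casq1 from 7.60 to 10.32 below low arrays of 10.65 to 11.17.

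Interleukin-6 signalling and acute phase genes also lay mostly higher. Of 21 tested members, 5 were apart and higher, against 1.6% of all genes, and 0 were apart and lower. The list median was 0.79, and it was 0.48 between the vehicle arrays. Of other members, Serpina3n, Saa3 and Hp differed by 2.27, 1.27 and 1.22 log2 units with overlapping sets. Saa1 differed by 0.14, and Fgg and Orm1 went the other way, by -0.60 and -0.62. Lcn2, the secreted siderophore-binding protein lipocalin-2, had the largest difference of all named genes that were higher, 12.7-fold. It read 9.31, 10.17, 10.72 and 6.13 on the high arrays and 5.31, 5.06 and 5.89 on the low arrays. The third 4b animal was near the low set, 1 wild-type 4b array reached 9.44, and the gene was detected on only 1 of 3 low arrays, so its size rests on the background treatment (2.35 log2 units without background correction).

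Il6ra, the interleukin-6 receptor, read 8.70, 9.35, 8.62 and 7.79 against 6.61, 7.45 and 6.71 (3.23-fold), and every high array exceeded the wild-type range of 5.16 to 6.17 (median 5.67). Il6st, the shared signalling subunit gp130, read 8.95, 9.89, 8.97 and 9.10 against 8.62, 5.96 and 8.66, but this rested on the 1 low array at 5.96: the difference was 0.59 without it, and wild type ran from 6.12 to 9.67. Socs3, the feedback inhibitor of this pathway, read 8.46, 9.96, 10.60 and 8.33 against 7.57, 7.52 and 8.14. The values 8.46 and 8.33 lay within the wild-type range (7.17 to 8.89), and between vehicle arrays the difference was 0.71.

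Of the neutrophil markers, S100a8 and S100a9 moved with these genes. S100a8, a subunit of the neutrophil protein calprotectin, read 11.15, 11.87, 12.33 and 9.74 on the high arrays and 8.13, 8.39 and 8.23 on the low arrays (8.12-fold), and its partner S100a9 read 8.76, 9.0, 9.88 and 7.51 against 6.49, 6.56 and 6.54 (4.78-fold). Of 5 neutrophil markers 3 were tested, and 2 of them were apart. The summed intensity of the tested markers, S100a8, S100a9 and Ltf, was 1070 to 6200 on high, 398 to 491 on low and 157 to 668 on wild-type arrays. The granule genes Ngp and Camp were not tested: Ngp was detected on 2 of 4 high and 0 of 3 low arrays and Camp on 1 of 4 and 0 of 3. Ltf, the third tested marker, differed by 0.0004 log2 units and was detected on 1 of 4 high and 1 of 3 low arrays. The part of neutrophils in the acute phase values was not tested.

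**Figure D3:**
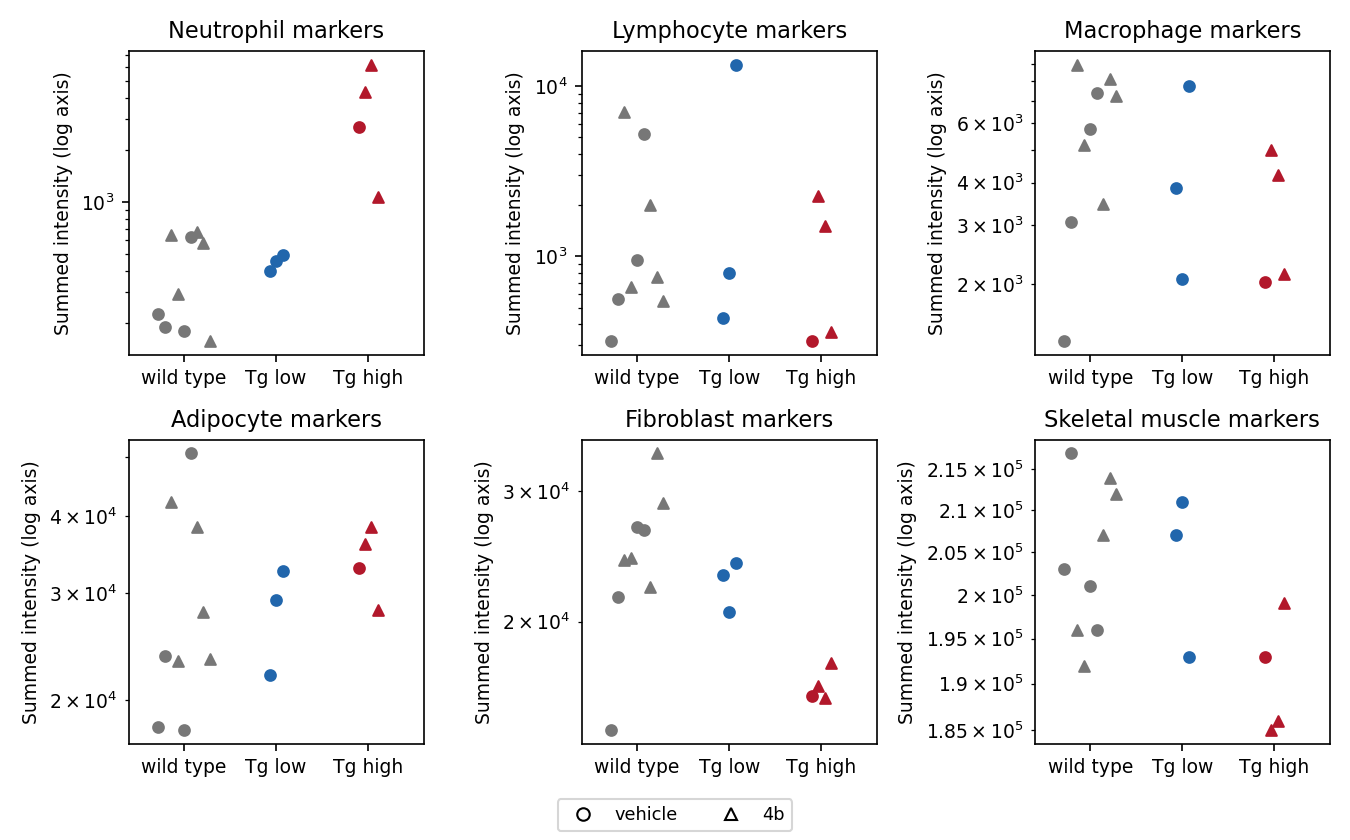
Summed linear intensity (log axis) of the tested markers of 6 cell types on wild-type, low-Cdkn1a and high-Cdkn1a transgenic arrays. Each point is 1 animal, with circles for vehicle and triangles for 4b. Neutrophil sums (S100a8, S100a9 and Ltf) of the high arrays (1070 to 6200) exceed all others, and 1 low array has the highest lymphocyte sum (13400).

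Among the metabolic genes, the median of the fatty acid oxidation list lay above that of all genes and the median of the glycolysis list below it. In the list of PGC-1 and fatty acid oxidation, 3 of 25 genes were apart and higher and 1 lower, 10 were higher on every high array, and the median was 0.30. The matching shares of all genes were 1.6%, 1.86% and 10.3%. Acot1, an acyl-CoA thioesterase induced by fasting and PPAR-alpha, read 13.65, 13.56, 13.07 and 11.27 against 9.14, 10.49 and 10.33 (7.46-fold). Its mitochondrial relative Acot2 read 10.56, 10.83, 9.84 and 8.79 against 7.76, 8.27 and 7.83 (4.15-fold), although a second Acot2 probe differed by only 0.15, and the near-identical paralogs may share hybridisation.

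Ucp3, the muscle uncoupling protein, was tightly grouped at 10.05, 10.45, 10.39 and 10.24 against 9.21, 9.14 and 9.33 (2.07-fold), where the low arrays lay within the wild-type range of 8.02 to 9.98 and the high arrays above it. The coactivator gene Ppargc1b went the other way, at 8.67, 7.64, 8.16 and 9.42 against 9.48, 9.60 and 9.73. Ucp3 and Ppargc1b were no longer apart without background correction, without the first 4b animal or in vehicle arrays only, with differences as small as 0.82 and -0.86. Of 22 genes of glucose transport, glycolysis and glycogen, 0 were apart, 4 were lower and 1 higher on every high array, and the median was -0.22. Among all genes, 8.71% were lower and 10.3% higher on every high array. Of 42 respiratory chain and ATP synthase genes 0 were apart (median -0.15, and 0.00281 under median scaling), with Cox6c at -0.56 and Cox7a1 at -0.51.

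Phkg1, the catalytic subunit of phosphorylase kinase, read 9.94, 10.54, 10.83 and 12.28 against 12.10, 12.26 and 12.26, and Pgm1, which links glycogen to glycolysis, read 11.03, 10.40, 11.06 and 12 against 11.96, 11.99 and 12.21. In both the third 4b animal overlapped the low set. Enzymes of one-carbon and creatine metabolism included Gnmt, glycine N-methyltransferase, at 10.35, 9.88, 10.45 and 8.55 against 5.92, 8.34 and 6.67 (7.12-fold), which was not apart when its probes were averaged. Gamt, which makes creatine, was 3.31-fold lower at 6.74, 5.59, 7.20 and 7.14 against 9.04, 7.40 and 8.75 (-1.11 log2 units without background correction, against -1.73).

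Several genes of muscle structure and calcium handling were lower in the high set. Casq1, the calcium-binding calsequestrin of fast fibres, read 9.17, 7.60, 8.14 and 10.32 on the high arrays, 10.65 to 11.17 on the low arrays and 12.28 to 13.03 on wild-type arrays (median 12.59), so the 3 sets did not overlap. Sypl2, the triad junction protein mitsugumin 29, read 10.61, 8.63, 9.44 and 11.94 against 13.19, 12.53 and 12.70 (6.27-fold lower), and 1 of the 3 low arrays lay within the wild-type range of 13.12 to 13.72. Ky, the kyphoscoliosis peptidase needed for normal muscle growth, read 9.46, 8.38, 9.26 and 11.38 against 12.39, 12.31 and 12.49 (6.86-fold lower).

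Actc1, cardiac alpha-actin, read 8.29, 6.53, 6.94 and 10.30 against 11.92, 11.20 and 10.66, a 9.50-fold difference, and was not apart when the probes of a gene were averaged. Mef2c, a transcription factor of muscle structural genes, read 12.67, 11.20, 11.60 and 12.07 against 13.39, 13.12 and 12.83, and differed by only -0.44 between vehicle arrays. Igfbp5, an insulin-like growth factor binding protein of muscle, was 2.79-fold lower at 9.86, 10.90, 9.72 and 10.70 against 12.16, 11.09 and 12.07, and was not apart under median scaling. Asph, whose products include the triad protein junctin, was 2.50-fold lower on its brightest probe, but its 6 other probes differed by -0.83 to 0.47.

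The fibre-type lists showed no common shift of that size. Of 18 fast fibre genes 1 was apart, Casq1, with 5 lower and 0 higher on every high array (median -0.14), and of 17 excitation-contraction coupling genes 1 was apart (median -0.34). The fast myosin gene Myh4 read 12.50, 13.33, 13.24 and 13.41 against 13.44, 13.37 and 13.51. Of 16 slow fibre genes 0 were apart, and their median of 0.45 became -0.08 without transgenic vehicle animal 3 and 1.01 without animal 4. The slow fibre calsequestrin Casq2 overlapped, at 9.98, 7.5, 7.81 and 8.79 against 11.02, 8.80 and 9.98, as did the stretch-responsive gene Ankrd2. In the neuromuscular junction and denervation list 0 of 17 genes were apart and 3 were lower on every high array, with a median of -0.31, Ache at -0.91 and the agrin receptor gene Lrp4 at -0.91. Over all genes, 8.71% were lower and 10.3% higher on every high array.

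Extracellular matrix genes were lower in the high set, 6 of 22 apart and lower against 1 higher, with a median of -0.42. Among all genes, 1.86% were apart and lower and 1.6% apart and higher. Lum, the collagen-binding proteoglycan lumican, read 6.78, 6.87, 6.69 and 8.70 on the high arrays against 10.63, 9.0 and 10.70 (7.22-fold lower), and wild type ran from 10.14 to 11.92 (median 11.19). Col6a1, a chain of the type VI collagen around muscle fibres, read 8.73, 9.06, 8.29 and 9.43 against 10.86, 9.68 and 10.74 (2.92-fold lower), below the wild-type range of 11.05 to 12.38. For Col6a1 the high, low and wild-type arrays followed each other without overlap, while 2 of the 3 low arrays of Lum lay within the wild-type range.

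Col15a1, a basement membrane collagen, read 5.08, 6.05, 5.71 and 6.15 against 7.60, 6.34 and 7.23, and Col1a1, the main type I collagen chain, read 5.09, 5.18, 5.49 and 5.30 against 7.49, 5.93 and 6.75. Col1a1 was detected on 1 of 4 high arrays, and both differences were -0.62 without background correction. Nrep, which is expressed in regenerating and fibrotic tissue, was 7.66-fold lower at 8.31, 7.30, 7.92 and 9.50 against 11.41, 10.61 and 11.56. Lox, the enzyme that crosslinks collagen, was the 1 member apart and higher, by 1.17 log2 units, and is named here after its value was seen.

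All 5 fibroblast markers are also members of the matrix list, so they give no separate view of it. Their summed intensity was 15800 to 17600 on high, 20600 to 24000 on low and 14300 to 33700 on wild-type arrays, and 2 of 5 were apart and lower. The tendon markers Fmod and Comp were lower by 1.69 and 1.10 log2 units with overlapping sets. The part of fibroblast number in the matrix values was not tested.

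The antigen-presenting genes H2-Ab1 and H2-Aa, chains of MHC class II, were lower in the high set by 6.17-fold and 5.02-fold. H2-Ab1 read 6.93, 9.62, 9.27 and 8.28 against 10.44, 10.11 and 12.90, and H2-Aa read 5.43, 7.71, 7.36 and 6.26 against 8.14, 7.96 and 10.95. The third value of each low set, transgenic vehicle animal 4, was far above the others. Without that animal the log2 differences were -1.75 for H2-Ab1 and -1.36 for H2-Aa, against -2.63 and -2.33. Lymphocyte markers (9 of 9 tested, 0 apart) were highest on the same array, with a summed intensity of 13400 against 434 and 801 on the other low arrays and 318 to 2260 on the high arrays. Their median of -0.75 turned to 0.46 without that array. The B cell marker Ms4a1 was detected on 0 of 4 high arrays, 1 of 3 low arrays and 2 of 9 wild-type arrays. Cd79a and Cd79b, also B cell markers, were each detected on 2 of 4 high and 2 of 3 low arrays.

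The alternative-macrophage product Retnla was 6.53-fold lower, at 7.15, 8.15, 8.05 and 9.16 against 11.20, 9.73 and 11.58. Macrophage markers (7 tested, 0 apart) had summed intensities of 2030 to 5000 on high and 2070 to 7740 on low arrays, with Cd14 at 0.73 and Lyz2 at -0.72. Adipocyte markers (6 tested, 0 apart) summed to 28100 to 38400 on high and 22000 to 32600 on low arrays, while their median difference was -0.50 (-1.2 in vehicle arrays only), with Lep at -1.46, Adipoq at -1.35 and Lpl at 0.37. Smooth muscle markers (3 tested, 0 apart) summed to 3350 to 4510 on high, 4730 to 7770 on low and 3170 to 11000 on wild-type arrays. Acta2, smooth muscle actin, and Tek, the angiopoietin receptor of endothelium, were lower on every high array, by means of -0.56 and -0.54. The endothelial marker Pecam1 was higher on every high array, by 0.26. Of 5 tested endothelial markers, 1 was thus higher and 1 lower at any size. Over all genes, 10.3% were higher and 8.71% lower on every high array. Markers of endothelium, Schwann cells and erythrocytes had 0 members apart, and the satellite cell markers Pax7 and Myf5 were not detected on any array. The part of other cells in these differences was not tested.

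Clock genes differed in both directions. Of 15 tested, 3 were apart and higher and 1 lower, against 1.6% and 1.86% of all genes. Dbp, an output factor of the clock, read 10.06, 9.37, 10.04 and 11.92 against 12.48, 12.39 and 12.87 (4.70-fold lower). Arntl, the core activator BMAL1, read 8.39, 8.75, 8.96 and 8.39 against 7.12, 6.97 and 7.72 (2.55-fold higher). Ciart and Nfil3, both repressors within the clock, were 3.24-fold and 2.53-fold higher, the latter at 0.94 log2 units without low array 4, with Ciart at 9.25, 9.67, 9.95 and 9.52 against 7.48, 8.55 and 7.68. Arntl and Ciart were inside the wild-type range, which reached 8.72 and 9.12, on 2 and 0 of the high arrays, and Arntl differed by 0.95 without background correction. The sources used here do not give the time of day at which muscle was taken.

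Of 19 p53 targets and growth arrest genes other than Cdkn1a, 2 were apart and higher, where 1.6% of all genes were, and 0 were apart and lower (median 0.25, and -0.02 between vehicle arrays). Sesn1, the p53- and FoxO-induced inhibitor of mTOR signalling whose promoter is shown above, read 12.87, 13.08, 12.88 and 13.09 against 10.49, 12.33 and 11.93 (2.63-fold), with wild type from 9.35 to 10.75 (median 10.30). The high arrays had an SD of 0.12 (n = 4), but the difference rested in part on low array 2, without which it was 0.85. Trp53inp1, a p53-induced autophagy factor, read 10.82, 11.54, 11.21 and 10.74 against 8.95, 10.21 and 10.16 (0.89 log2 units without low array 2).

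Of 17 integrated stress response genes 1 was apart, namely Ppp1r15a, the phosphatase subunit GADD34 that reverses the translation block, at 10.77, 11.19, 11.24 and 10.33 against 9.35, 9.52 and 9.26 (2.83-fold). Of 19 chaperones 2 were apart and lower, the muscle small heat shock genes Hspb3 (2.72-fold) and Hspb2 (2.0-fold), and 0 were apart and higher, while 3 were higher and 2 lower on every high array at any size. The counts at any size were near the shares of all genes, 10.3% higher and 8.71% lower. The list median was -0.12, and 0.13 between vehicle arrays. Between vehicle arrays Hspb3 differed by -0.69 and Hspb2 by -0.49, and Hspb2 was not apart under median scaling or without background correction either. Of 16 histone deacetylases and sirtuins 0 were apart, against 1.6% of all genes apart and higher and 1.86% apart and lower. The sirtuin gene Sirt3 differed by -0.85 and the deacetylase gene Hdac4 by -0.57.

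The remaining genes of the largest differences belong to no list. Doc2b, a calcium sensor of vesicle fusion, read 8.81, 8.74, 9.14 and 7.05 against 5.19, 6.21 and 4.83, and it was detected on all 4 high arrays, 1 of 3 low arrays and 0 of 9 wild-type arrays, and differed by 1.69 without background correction. Sphk1, which makes sphingosine 1-phosphate, was 6.41-fold higher at 10.18, 10.02, 9.93 and 7.31 against 7.23, 5.95 and 6.85. Slc10a6 (a transporter of sulphated steroids), Map3k6 (a stress kinase), Tmem82, Fbxo44 (an F-box protein) and Avil (an actin-binding protein) were higher by 4.76-fold to 6.46-fold. Without background correction the log2 differences of Tmem82, Fbxo44 and Avil were 1.51, 1.25 and 1.44, against 2.69, 2.36 and 2.25.

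Itgb6, the beta chain of an epithelial integrin that activates TGF-beta, had the largest difference of the named genes, 13.8-fold lower. It read 6.47, 5.04, 5.92 and 7.83 on the high arrays against 10.74, 9.59 and 9.99, with wild type from 10.50 to 11.42. It was detected on 3 of 4 high arrays, and without background correction its difference was -2.66, where that of Actc1 was -2.69. Zfp985 and Ttc27 were 4.96-fold and 4.87-fold lower but detected on 1 of 4 high arrays each, and differed by -1.13 and -1.09 without background correction. Ttc27 lay at 7.27 on the first 4b array and at 4.65 to 4.70 on the other high arrays.

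**Figure D4:**
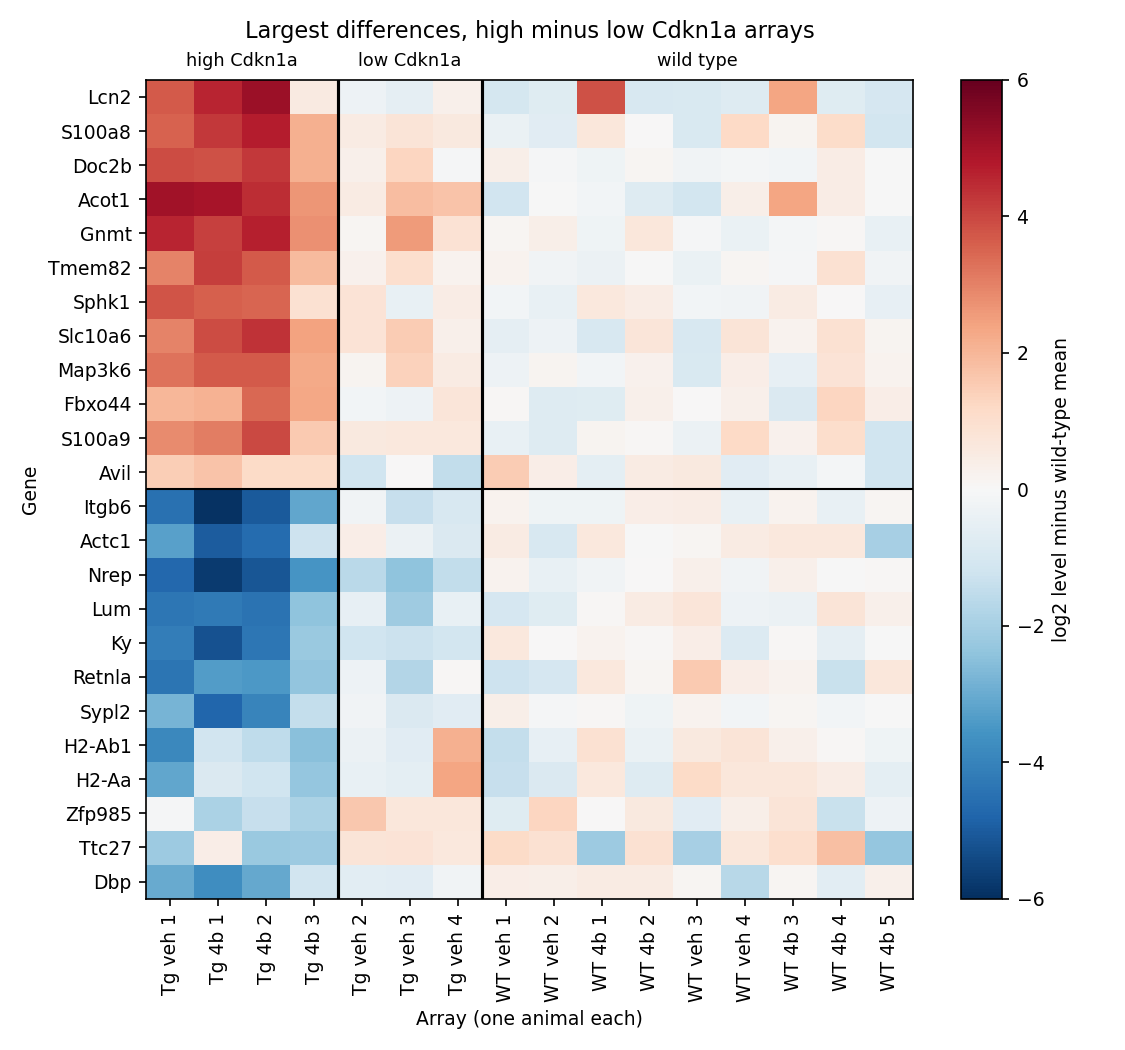
Log2 level minus the wild-type mean (colour scale) of the 12 genes with the largest difference upward and the 12 with the largest difference downward between high and low Cdkn1a arrays (rows), on each of 16 arrays (columns). The third 4b animal is paler than the other high arrays for most genes, and H2-Ab1 and H2-Aa are highest on transgenic vehicle animal 4.

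The labelled groups allow tests, of which those that involve transgenic mice use the arrays that were split. In transgenic against wild-type mice, averaged over treatments, limma called 1838 genes higher (17.9%) and 1582 lower (15.4%) at an adjusted p under 0.05. Median scaling gave 2736 higher and 985 lower, and moved the median of all genes to 0.10. The high arrays carry a weight of 0.625 in the transgenic mean, so this contrast is not independent of the split: 139 of the 165 higher genes rose in it and 144 of the 191 lower genes fell, with 1 rising. Foxo1 rose by 1.74 ± 0.22 (SE, limma adjusted p = 0.000106), Fkbp5 by 3.04 ± 0.50 (adjusted p = 0.000485) and Ddit4 by 3.23 ± 0.49 (adjusted p = 0.000276), and Trim63 rose by 0.91 ± 0.29 (adjusted p = 0.028). Fbxo32 did not pass, at 0.83 ± 0.44 (adjusted p = 0.166). Casq1 fell by 3.08 ± 0.35 (adjusted p = 5.09e-05) and Col1a1 fell by 4.03 ± 0.43 (adjusted p = 3.05e-05), while H2-Ab1 (adjusted p = 0.165), Avil (0.41) and Il6st (0.871) did not pass.

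Of the listed genes in that contrast, 17 of 25 fatty acid oxidation genes rose and 1 fell, 9 of 19 glucocorticoid genes rose and 2 fell, 10 of 21 acute phase genes rose and 0 fell, and 14 of 28 proteasome genes rose and 1 fell. Matrix genes fell in 13 of 22 cases and rose in 0, glycolysis genes fell in 14 of 22 and rose in 1, and 8 of 17 excitation-contraction genes fell and 0 rose. Over all genes, 17.9% rose and 15.4% fell. Other lists were nearer to these shares or below them. Of 16 ubiquitin ligases 3 rose and 4 fell, and of 19 p53 and growth arrest genes 5 rose and 3 fell. Of 17 stress response genes 4 rose and 1 fell, and of 42 respiratory chain and ATP synthase genes 2 rose and 1 fell.

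Prnp, whose promoter drives the transgene, read 14.55, 13.99, 13.99 and 14.11 on the high arrays and 15.09, 14.69 and 14.27 on the low arrays, against 13.32 to 13.77 on wild-type arrays. The high and low sets overlapped. Whether the probe also reads the transgene's transcript was not tested. Prnp was higher in transgenic than wild-type mice by 0.83 ± 0.12 (SE, limma adjusted p = 2e-04).

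The contrast of 4b against vehicle in transgenic mice places 6 of the 7 arrays as the split does and cannot serve as separate evidence. It called 1 gene (0.00971%), Nfkbib, an inhibitor of NF-kappaB, at 1.08 ± 0.16 (SE, limma adjusted p = 0.0477), with 1517 genes at an unadjusted p under 0.05. Nfkbib read 6.95 on the high vehicle array, 8.05, 8.04 and 7.65 on the 4b arrays and 6.64, 7.01 and 6.75 on the low arrays, so the high vehicle array lay with the low set. The count was 325 without transgenic vehicle animal 1, 421 without the third 4b animal, 4 without vehicle animal 3, and 0 without the first or second 4b animal or vehicle animal 4.

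The contrast of 4b against vehicle in wild-type mice uses 9 arrays that took no part in the split. Limma called 0 genes in it (0%), with 275 of 10295 at an unadjusted p under 0.05. Of the 165 higher genes 2 were among those 275, and of the 191 lower genes 3. The median 4b difference in wild-type mice was -0.01 log2 units over the 165 genes and 0.10 over the 191, against -0.02 over all genes. In the same contrast Foxo1 differed by 0.24 ± 0.29 (SE), Trim63 by -0.11 ± 0.39, Fkbp5 by -0.24 ± 0.66, Acot1 by 0.85 ± 0.81, Casq1 by -0.03 ± 0.46 and Col6a1 by 0.36 ± 0.39, each with an adjusted p of 1 in limma. The difference between the 4b effects of the genotypes called 0 genes (0%), with 1039 at an unadjusted p under 0.05, 17 called without the third transgenic 4b animal and 1 without transgenic vehicle animal 1.

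Within transgenic vehicle mice alone, array 1 can be set against the other 3 without 4b in the comparison. It lay above all 3 and over 2-fold from their mean in 342 genes (3.32%), and likewise below in 606 (5.89%), a comparison of 1 animal with no error of its own. Acot1 was higher there by 3.66 log2 units, Sphk1 by 3.5, Fkbp5 by 2.12, Ddit4 by 2.02 and Fbxo32 by 1.53, and the differences of Itgb6, Lum and Casq1 were -3.63, -3.33 and -1.72. Of the 56 named genes that were apart, 8 lost that standing in vehicle arrays alone. Because array 1 belongs to the high set, their direction and lack of overlap here were fixed by the selection. Only the 2-fold limit could fail, so the count is no separate evidence. The plot of gene list medians sets these values beside those of all 7 arrays.

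**Figure D5:**
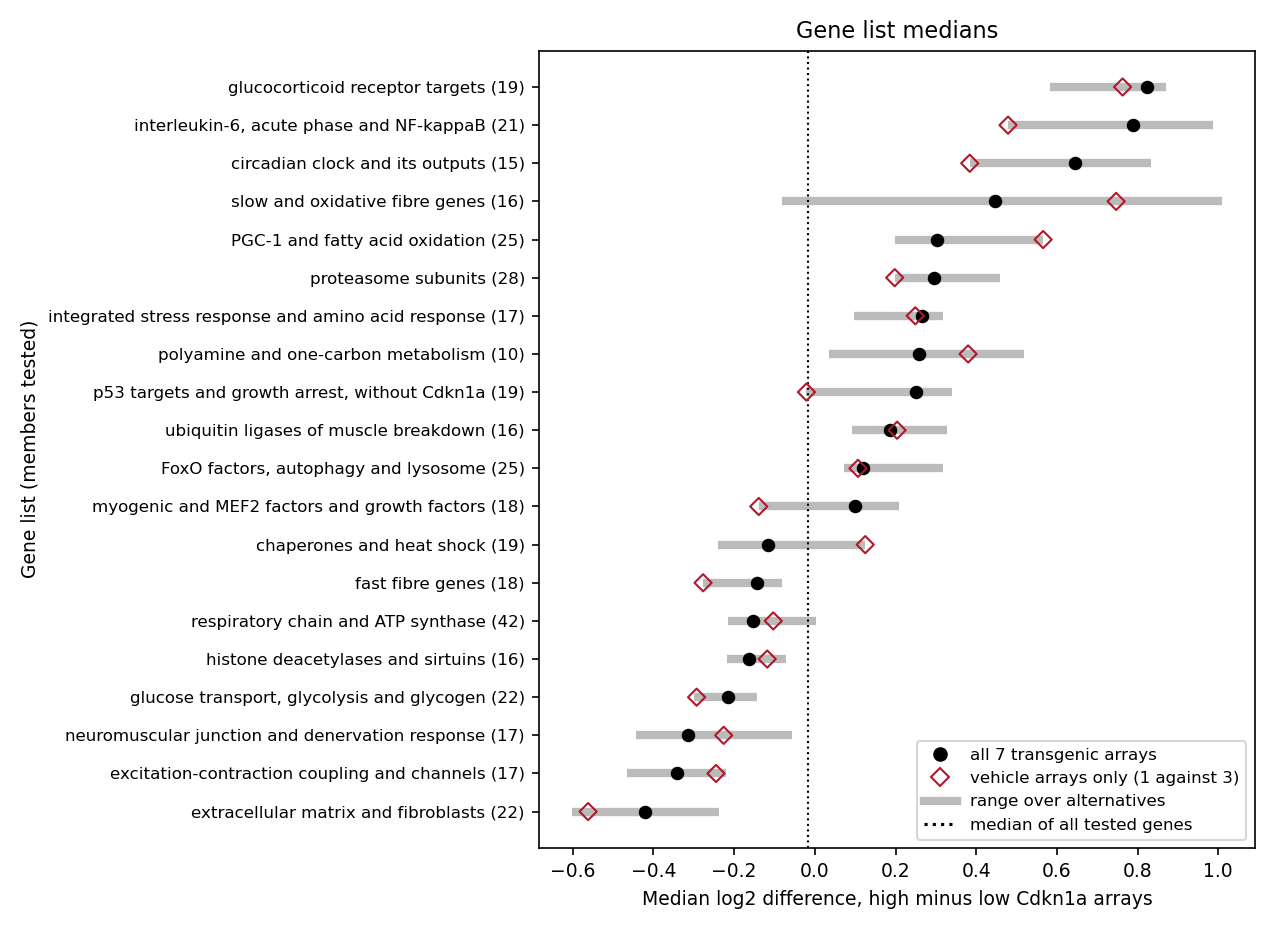
Median log2 difference between high and low Cdkn1a arrays (horizontal axis) of each pathway list, without the cell type markers (vertical axis, members tested in brackets). Filled points use all 7 transgenic arrays, open diamonds the vehicle arrays alone, grey bars the range over the alternatives, and the dotted line is the median of all genes (-0.02). Of the lists plotted, glucocorticoid targets have the highest median (0.82) and matrix genes the lowest (-0.42).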

How the data were processed

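Per the file headers, the deposited table holds 1 non-normalized intensity per probe and array (81.2 to 44500) and a detection p-value, which the authors' software deposited beside it. A second table holds the authors' log2 values, used for the Cdkn1a split and as an alternative; their order of probes matched the intensities on each array (lowest Spearman correlation 1), every column had a median of 7.105 and no genes were centred, while the sources used here do not give the method behind them. Intensities were background-corrected (normexp with detection p-values, offset 16) and the log2 values quantile-normalized in limma 3.58.1 (R 4.3.3). Of 25697 probes, 23978 had 1 symbol, 0 several and 1719 none. Probes detected at p under 0.05 on at least 3 arrays were kept (13706), and the brightest probe stood for each gene (10295). A limma model of 4 group means was fitted to all 16 arrays, two-sided with Benjamini-Hochberg adjustment. The labels number every animal separately, so arrays were taken as separate animals, and their number limits the precision; the median standard error was 0.235 log2 units for 4b in transgenic and 0.206 in wild-type mice. Both steps were tested on simulated data.

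The split, the gene lists and the tests were chosen with earlier results of these data known. Named genes are the 12 largest differences in each direction among genes apart (without RIKEN, LOC and Gm identifiers, Cdkn1a and sex-linked transcripts), up to 4 apart members per list or otherwise the 2 with the largest difference, genes of labelled contrasts with 5 or fewer calls, and Prnp. Up to 14 alternatives per gene changed background, normalization, filter, probe choice and the arrays used; the deposited values and those without background correction gave the same numbers and amount to 1 setting.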

Additional observations from a re-analysis of the deposited data

Results flagged for a closer look

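Within labelled groups of 4 or 5 arrays, the named genes were searched for an array whose gap to its nearest neighbour exceeded Dixon's critical share of the range. It did in 24 of 254 tests (9.45%). The nominal rate of about 5% is no yardstick here. Many named genes were picked for being apart between sets that place transgenic vehicle animal 1 away from its group, and genes on 1 array are not independent. Transgenic vehicle animal 1, the vehicle array of the high set, accounted for 9 of the 24. It was the highest of its group for S100a8 (0.916) and S100a9 (0.967), and the lowest for Ky (0.94), Ttc27 (0.933), Asph (0.912), Cox7a1 (0.875), Phkg1 (0.932), Sirt3 (0.853) and Myh4 (0.865). Since the split set this animal apart from its group, its distance is a description.

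Transgenic vehicle animal 3 was the lowest for Il6st (0.89) and the highest for Alas2 (0.85). Among wild-type mice given 4b, animal 1 was lowest for Ankrd2 (0.804), Hba-a1 (0.819) and Alas2 (0.754), animal 4 was highest for Tmem82 (0.739), Col1a1 (0.76) and Arntl (0.784) and lowest for Retnla (0.714), and animal 5 was lowest for Actc1 (0.756). Among wild-type vehicle mice, animal 1 was lowest for Mb (0.868) and Fmod (0.833), animal 3 for Ttc27 (0.847), and animal 4 was lowest for Dbp (0.864) and highest for Ltb (0.927).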

How the results depend on the processing

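Genes apart and higher or lower numbered 165 and 191. They numbered 81 and 84 both with the deposited log2 values and without background correction, 581 and 520 at 1.5-fold, 342 and 606 in vehicle arrays only, and 140 to 325 and 172 to 365 with 1 array left out. Calls for 4b in transgenic mice (1) were 4 with the deposited values and without background correction, 2 under the stricter detection filter, 1778 with array weights, and 0 with median scaling, sex as a covariate or only the 7 transgenic arrays; with 1 array left out they ran from 0 to 421. The interaction (0) gave 1 call without the filter, 1 under the stricter filter and 89 with array weights, and 0 to 17 with 1 array left out. Transgenic against wild type (3420) ran from 2670 to 3597 with 1 array left out and gave 3721 with median scaling and 4490 with array weights, and 4b in wild-type mice stayed at 0 under every alternative run. Of 56 named genes apart, 37 were so under every alternative run, 19 lost it under 1 or more and 56 kept their sign. With 1 array left out or in vehicle arrays only, the selection itself fixed their sign and lack of overlap. In those settings only the 2-fold limit could fail, so these counts were partly set in advance. Among the list medians, 10 of 31 changed sign. The causes were not tested. No paired analysis was possible because replicate numbers were given in accession order and pair no animals. A slide block was not run, since the files name no slide. The sizes of Doc2b, Lcn2, Zfp985, Ttc27, Col1a1, Col15a1, Comp, Itgb6, Tmem82, Fbxo44, Avil and Mt2 moved with the background treatment.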

Other observations

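The erythroid genes varied among the high arrays more than between the sets. Alas2, the first enzyme of haem synthesis in red cells, read 7.91, 5.30, 6.85 and 11.10 on the high arrays and 7.89, 8.80 and 7.75 on the low arrays, and Hba-a1, alpha-globin, read 14.29, 12.45, 13.25 and 15.32 against 14.60, 14.69 and 14.43. The third 4b animal was highest for both and the first 4b animal lowest. Lep, leptin, also varied, but in another order, at 5.09, 8.61, 5.95 and 8.14 on the high arrays and 9.29, 7.0 and 8.94 on the low arrays. Among the high arrays the first 4b animal was highest for Lep and the vehicle animal lowest. Mbp, a myelin gene, read 11.01 on the first 4b array against 9.35 to 9.87 on the other high and 9.61 to 9.75 on the low arrays.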
